A study of Mus musculus with 19 samples.

Results

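The transcripts described here encode 9 transcription factors of the interferon response, *Irf1*, *Irf2*, *Irf3*, *Irf5*, *Irf7*, *Irf8*, *Irf9*, *Stat2* and *Stat3*, in the brains of SCA17 knock-in mice. They were taken by gene name from a table of 41128 genes, and each name matched 1 row. Other genes of the IRF and STAT families were not analysed here. The design asks of each member whether its level differed between knock-in and WT mice within a brain region, and whether the size of that difference varied between regions.

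Spinocerebellar ataxia 17 (SCA17) is caused by a long glutamine repeat in TBP, the TATA box-binding protein that positions RNA polymerase II at promoters. The knock-in mice (KI) carried the Tbp-105Q allele in the germline. The floxed TBP allele of heterozygous mice had been recombined by EIIa-Cre, a transgene active in the early embryo, and passed on through a WT mating, so the knock-in allele was present in every cell type and not in neurons alone. The WT mice were age-matched animals without the allele, and all mice were 3 months old on the C57BL/6 strain. RNA of whole tissue was sequenced from the cerebellum (3 WT and 4 KI libraries), striatum (3 and 3) and prefrontal cortex (3 and 3), 19 libraries in 6 groups. In such tissue, fewer cells of a type and less RNA per cell cannot be told apart.

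IRF proteins recognise short repeats of GAAA in the promoters of interferon-responsive genes. STAT proteins are activated when a JAK kinase at a cytokine receptor phosphorylates them. IRF9 and STAT2 are subunits of ISGF3, the complex that carries the signal of type I interferon to its target genes, and IRF7 is both a target of that complex and an inducer of further interferon. In the brain, IRF8 is a factor of microglia, and STAT3 is known for its part in the reaction of astrocytes to injury.

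The promoters of the members that changed are shown because TBP acts on promoters, and because they show how differently the members are built. Each line gives the 250 bases before the start of transcription in RefSeq on GRCm38.p6, and all 9 members matched, with 12 windows in total. Capitals mark 4 motifs searched on both strands: the interferon-stimulated response element GAAANNGAAA, the gamma-activated site TTCNNNGAA that STAT dimers bind, the GC box GGGCGG bound by SP1, and the TATA box TATAAA bound by TBP.
Irf7 (chr7:141266425-141266674, minus strand): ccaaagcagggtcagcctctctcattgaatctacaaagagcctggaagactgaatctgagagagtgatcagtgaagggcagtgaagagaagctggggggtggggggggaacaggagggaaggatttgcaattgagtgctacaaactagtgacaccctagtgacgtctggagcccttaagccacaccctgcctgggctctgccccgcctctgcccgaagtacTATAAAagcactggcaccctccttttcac
Irf9 (chr14:55603735-55603984, plus strand): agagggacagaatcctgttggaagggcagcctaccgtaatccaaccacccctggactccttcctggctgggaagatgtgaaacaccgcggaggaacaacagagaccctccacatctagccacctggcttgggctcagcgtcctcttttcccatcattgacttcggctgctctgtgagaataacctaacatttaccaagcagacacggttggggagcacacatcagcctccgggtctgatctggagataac
Stat2 (chr10:128270248-128270497, plus strand): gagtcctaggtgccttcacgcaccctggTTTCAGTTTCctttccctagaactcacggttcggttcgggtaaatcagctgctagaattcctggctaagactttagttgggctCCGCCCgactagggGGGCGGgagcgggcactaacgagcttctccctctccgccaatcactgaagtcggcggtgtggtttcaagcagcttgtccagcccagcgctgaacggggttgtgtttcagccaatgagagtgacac
Irf8 (chr8:120736108-120736357, plus strand): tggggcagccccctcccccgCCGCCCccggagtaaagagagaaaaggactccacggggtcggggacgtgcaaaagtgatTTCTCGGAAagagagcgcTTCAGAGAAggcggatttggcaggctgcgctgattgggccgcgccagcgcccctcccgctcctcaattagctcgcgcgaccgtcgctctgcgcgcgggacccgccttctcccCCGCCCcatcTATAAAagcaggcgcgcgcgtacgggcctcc

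In windows that also held the 50 bases after the start, TATAAA was found in *Irf7*, 29 bases before the start, and in *Irf8*, 31 bases before it. It was absent from the windows of the other 7 members, and 13.6% of all 32851 mouse windows held it. *Irf7* was also the 1 member of 9 with no GC box. Of the 12 member windows 9 held that motif, and 35.7% of all windows did, so most windows lack it. The response element occurred in *Stat2*, 222 bases before the start and on the opposite strand, and in *Irf2*, against 3.44% of all windows. The gamma-activated site occurred in *Irf1*, *Irf2* and *Irf8*, where 8.30% of all windows held it, and *Irf8* held it at 171 and at 153 bases before its start. The *Irf9* window above held none of the 4 motifs, and its other window held a GC box; both lie after the start that GENCODE gives for the gene. The RefSeq start of *Irf7* also lies after the GENCODE start, so its TATAAA falls inside the gene as GENCODE gives it. The start used for *Stat2* lies before the GENCODE start, and the bases after it were found in no GENCODE transcript of the gene. These are matches of letters in short windows, not measurements of binding.

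Levels are given as CPM, the usual scaling of counts to a common library size, here with edgeR's TMM factors. *Tbp* itself was measured at 58.5 ± 5.23 CPM (SD, n = 3) in WT and 52.9 ± 3.46 (n = 4) in KI cerebellum and differed in no region (adjusted p of 0.687, 0.844 and 0.921 by edgeR). A count over the whole gene does not show the length of its repeat, so it is no check of the labels. Library totals ranged from 10639110 to 17431284 counts, and all 9 members passed the filter on low counts with at least 18 counts in every library. A member was called where edgeR's quasi-likelihood p, adjusted by Benjamini and Hochberg's method over all 16841 genes tested, was under 0.05.

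**Figure D1:**
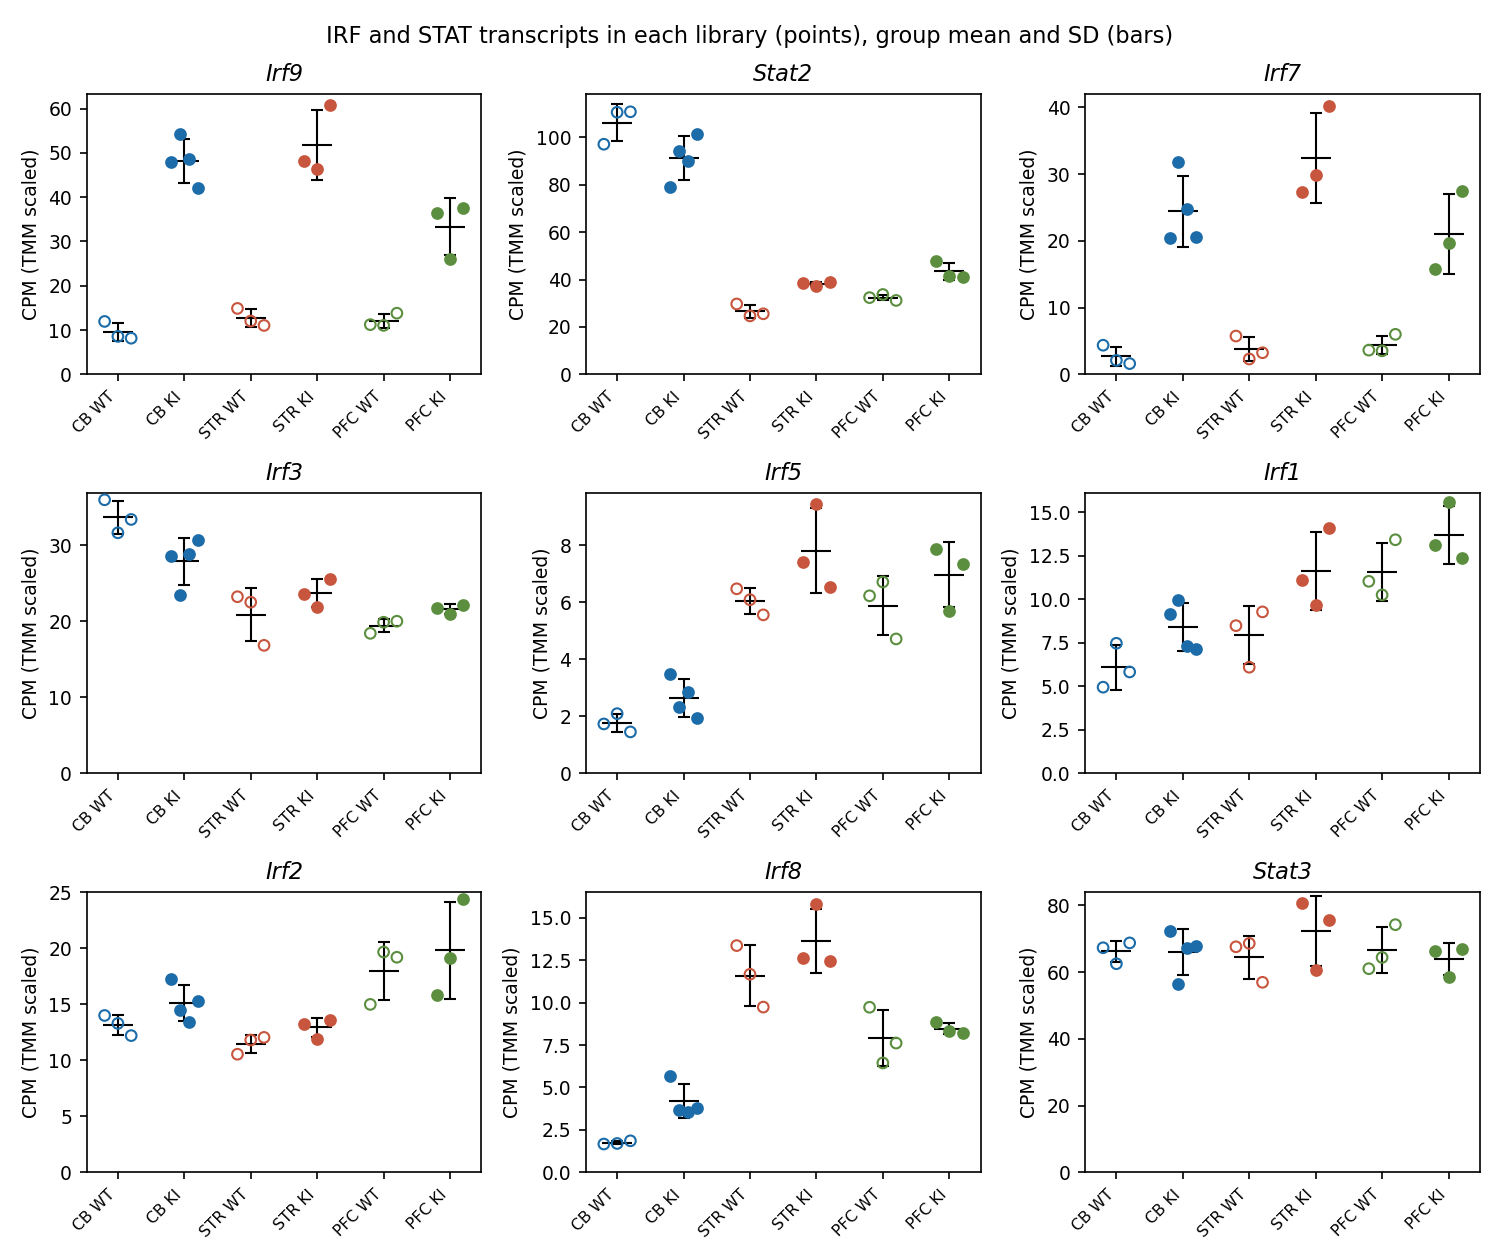
Level of each of the 9 transcripts in CPM (vertical axes, from 0) in the 6 groups of region and genotype, CB for cerebellum, STR for striatum and PFC for prefrontal cortex. Open points are WT libraries, filled points are KI libraries, and bars give the group mean and SD. *Irf7* and *Irf9* stand clear of the WT libraries in all 3 regions, and *Stat2* is highest in the cerebellum of both genotypes.

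*Irf7* and *Irf9* were called higher in KI mice in each of the 3 regions, *Irf8* in the cerebellum and *Stat2* in the striatum. In the cerebellum 3 of 9 members were higher and 0 were lower, where 0.517% of all genes were higher and 0.315% lower. In the striatum 3 of 9 were higher and 0 lower, against 0.392% and 0.19% of all genes. In the prefrontal cortex 2 of 9 were higher and 0 lower, against 0.0891% and 0.0178%. At an unadjusted p under 0.05 the members numbered 7, 4 and 3 in these regions, against 10.1%, 8.12% and 5.93% of all genes, and DESeq2 on the same groups also called 3, 3 and 2. The median log2 fold change of the 9 members was 0.47, 0.37 and 0.24, and that of all genes was 0.01, -0.01 and 0.00.

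The KI libraries all lay above all WT libraries for 3 members (cerebellum), 5 (striatum) and 4 (prefrontal cortex), against 5.82%, 5.65% and 4.38% of all genes. They all lay below the WT libraries for 1 member in the cerebellum, *Irf3*, and for 0 in the other regions, where 6.47%, 8.46% and 4.32% of all genes did so. *Irf7* and *Irf9* belong to a list of genes common to the regions that the study chose on these same libraries, so their calls are not independent of that choice.

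**Figure D2:**
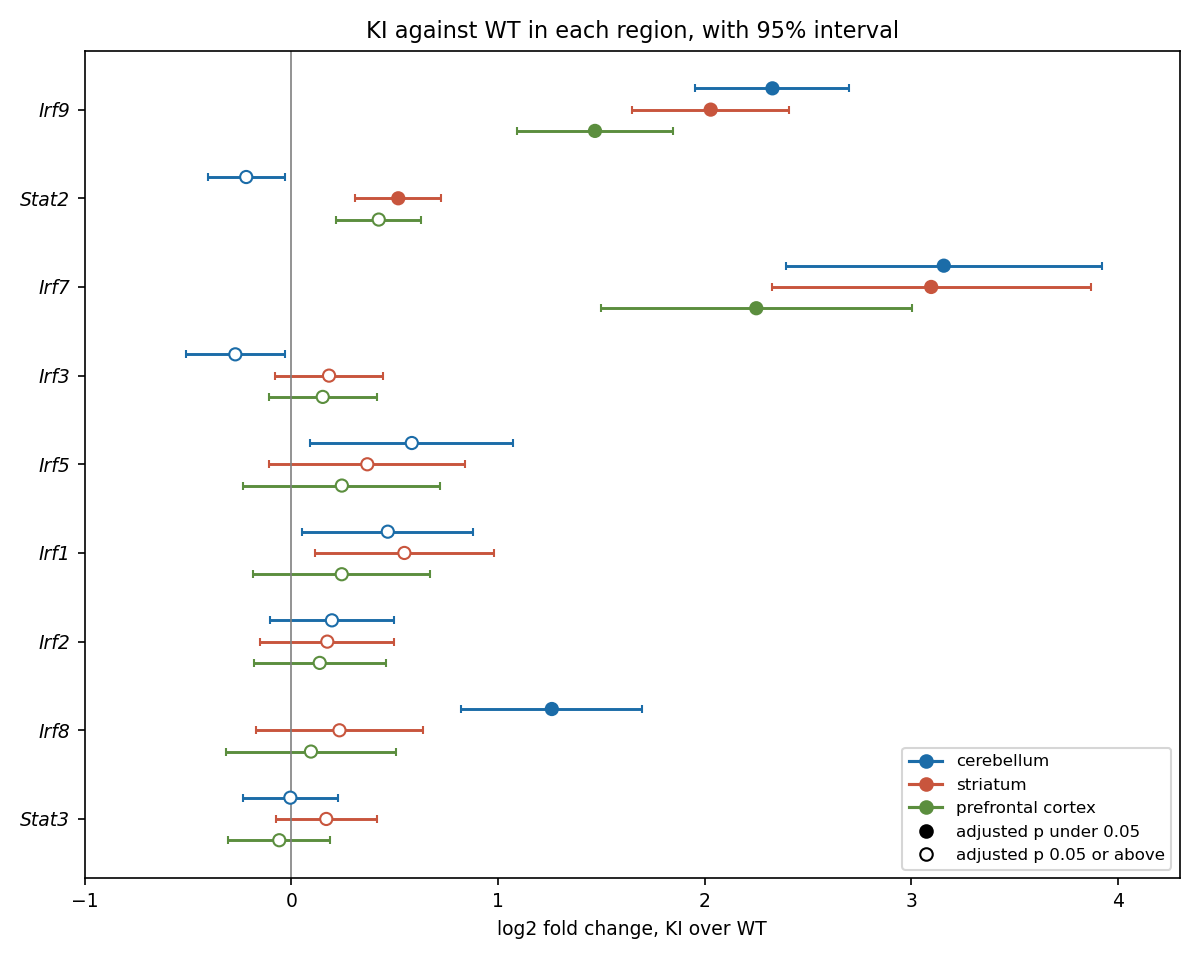
Log2 fold change of KI over WT (horizontal axis) for each member in the cerebellum, striatum and prefrontal cortex, with 95% intervals from the edgeR fit. Filled points have an adjusted p under 0.05 and open points do not. The intervals of *Irf9* and *Irf7* lie right of 1 in each region, and those of *Stat2* lie on opposite sides of 0 in the cerebellum and in the other regions.

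*Irf9* (chr14:55603571-55610030, plus strand), the DNA-binding subunit of ISGF3, had the smallest p of all genes tested in the cerebellum and in the prefrontal cortex. In the cerebellum it measured 8.17, 8.58 and 12.0 CPM in the WT libraries and 42.1, 47.9, 48.6 and 54.2 in the KI libraries. The groups were far apart, with a log2 fold change of 2.33 (SE 0.176, adjusted p = 4.45e-06), that is 5.02-fold. In the striatum it went from 11.0, 12.0 and 14.9 in WT to 46.4, 48.2 and 60.7 in KI, a log2 fold change of 2.03 (SE 0.180, adjusted p = 1.61e-05). The lowest KI library of the striatum was thus more than 3 times the highest WT library. In the prefrontal cortex the WT libraries held 11.1, 11.2 and 13.8 CPM and the KI libraries 26.1, 36.5 and 37.5, a log2 fold change of 1.47 (SE 0.179, adjusted p = 0.00305). With the prefrontal cortex fitted alone, the adjusted p of both *Irf9* and *Irf7* was 0.201 there.

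*Stat2* (chr10:128270559-128292849, plus strand), the partner of IRF9 in ISGF3 that carries its transactivation domain, followed another course. Its WT libraries held 24.7, 25.6 and 29.7 CPM in the striatum, and its KI libraries 37.2, 38.5 and 38.9. It rose by 1.43-fold in the striatum, with a log2 fold change of 0.52 (SE 0.0987, adjusted p = 0.0209). The prefrontal cortex held 31.2, 32.4 and 33.7 CPM in WT and 41.0, 41.6 and 47.7 in KI. All KI libraries were above all WT libraries there too, but the log2 fold change of 0.42 (SE 0.0978) had an adjusted p of 0.207. In the cerebellum the WT libraries held 97.1, 111 and 111 CPM and the KI libraries 79.1, 90.2, 94.1 and 102. These groups overlapped by 1 KI library, and the log2 fold change of -0.22 (SE 0.0881) did not pass the test (adjusted p = 0.388). The call in the striatum was lost when any of 4 libraries was left out, WT 2, WT 3, KI 1 or KI 3, with adjusted p between 0.0754 and 0.146 and log2 fold changes between 0.47 and 0.51.

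The proportion of these transcripts was set per kilobase of exon, so that genes of unlike length can be compared. The exons annotated for *Irf9* join into 6 blocks of 5386 bases that cover most of the gene, whereas the 19 blocks of *Stat2* hold 5926 bases of a far longer gene. *Irf9* per kilobase is therefore understated and each ratio overstated. Whether the factor was the same in WT and KI libraries was not tested. In WT cerebellum there was 10.5 ± 2.69 (SD, n = 3) times as much *Stat2* as *Irf9* per kilobase, and in KI cerebellum 1.74 ± 0.313 times (n = 4). In the striatum the ratio went from 1.93 ± 0.155 to 0.679 ± 0.0842, so that *Irf9* was the more abundant of the pair in each KI library. In the prefrontal cortex it went from 2.48 ± 0.379 to 1.21 ± 0.229. The WT and KI ranges of this ratio did not overlap in any of the 3 regions, and this description carries no test.

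**Figure D3:**
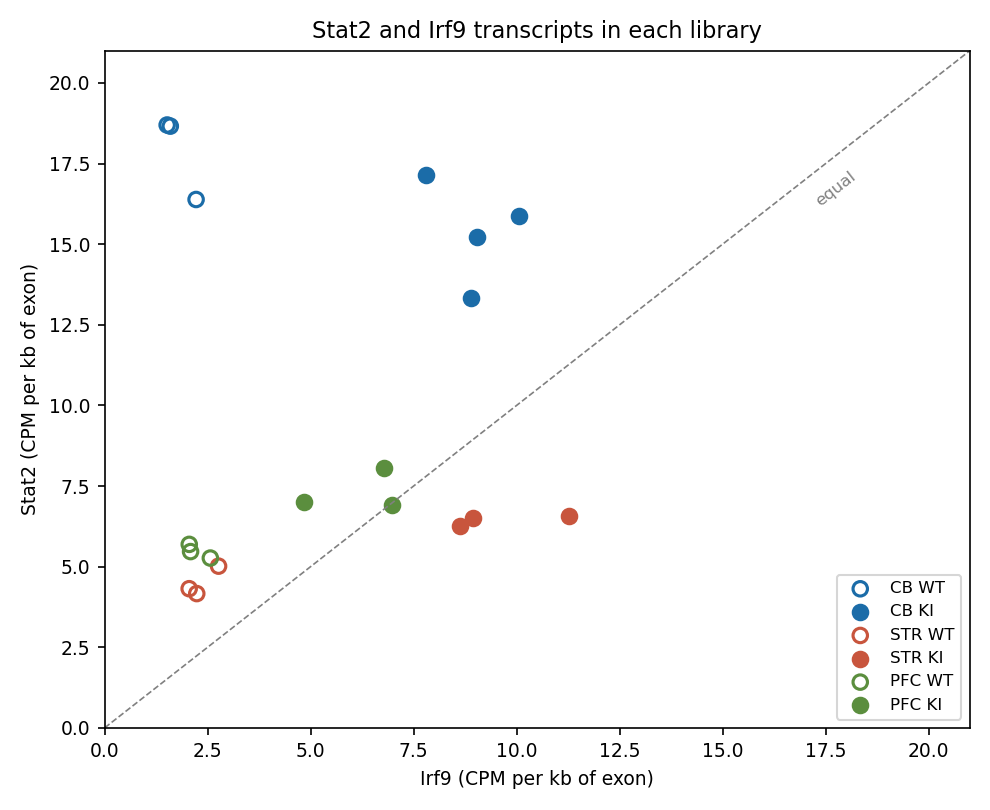
*Stat2* (vertical axis) against *Irf9* (horizontal axis), both in CPM per kilobase of exon, in each of the 19 libraries, with open points for WT and filled points for KI, and a dashed line where both are equal. WT cerebellum stands at the upper left, KI cerebellum moves to the right and not upward, and the 3 KI libraries of the striatum lie below the line.

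*Irf7* (chr7:141262706-141266481, minus strand), the inducer of type I interferon genes that is itself made in response to interferon, had the largest fold changes of the members. In the cerebellum it measured 1.62, 2.10 and 4.37 CPM in WT and 20.5, 20.6, 24.8 and 31.8 in KI, an 8.93-fold difference (log2 fold change 3.16, SE 0.362, adjusted p = 0.000173). The striatum held 2.30, 3.24 and 5.74 CPM in WT and 27.4, 29.9 and 40.1 in KI, 8.56-fold (3.10, SE 0.365, adjusted p = 0.000371). In both regions every KI library was over 4 times the highest WT library. The prefrontal cortex held 3.53, 3.63 and 6.00 CPM in WT and 15.8, 19.7 and 27.5 in KI, 4.76-fold (2.25, SE 0.356, adjusted p = 0.0158). That last call was lost without WT 1, WT 2 or KI 3, the library with the fewest counts, with adjusted p of 0.0929, 0.121 and 0.0849 and log2 fold changes between 2.01 and 2.13.

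*Irf3* (chr7:44997648-45002848, plus strand) and *Irf5* (chr6:29526625-29541871, plus strand) encode factors that are present before infection and are activated by kinases, IRF3 by TBK1 and IRF5 downstream of Toll-like receptors and MyD88. *Irf3* was called in no region. In the cerebellum it measured 31.6, 33.4 and 36.0 CPM in WT and 23.5, 28.7, 28.8 and 30.7 in KI, so every KI library was lower, with a log2 fold change of -0.27 (SE 0.113, adjusted p = 0.418). In the prefrontal cortex every KI library was higher, at 20.9, 21.8 and 22.2 CPM against 18.4, 19.9 and 20.0, with a log2 fold change of 0.15 (SE 0.124, adjusted p = 0.931). In the striatum the groups overlapped, at 16.8 to 23.2 CPM in WT and 21.9 to 25.6 in KI.

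*Irf5* had low counts in the cerebellum, 18 to 32 in WT and 32 to 62 in KI libraries, and means of 1.76 ± 0.321 CPM (SD, n = 3) and 2.65 ± 0.674 (n = 4). The log2 fold change of 0.58 (SE 0.233) had an adjusted p of 0.380, and 1 KI library lay below the highest WT library. In the striatum all KI libraries were higher, at 6.54 to 9.46 CPM against 5.56 to 6.48, without passing the test (log2 fold change 0.37, adjusted p = 0.734). Of its exon bases, 14.1% overlap exons of *Tnpo3* on the other strand, and the strand setting of the counting is not given in the sources used here. *Tnpo3* stood at 115 to 126 CPM in all groups and at log2 fold changes between 0.00 and 0.02.

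*Irf1* (chr11:53770014-53778374, plus strand) encodes an activator induced by interferon gamma, and *Irf2* (chr8:46739732-46847458, plus strand) encodes a factor that competes for the same sites. Neither was called in any region. *Irf1* measured 4.95, 5.82 and 7.47 CPM in WT and 7.13, 7.34, 9.18 and 9.98 in KI cerebellum, with a log2 fold change of 0.47 (SE 0.196, adjusted p = 0.423). In the striatum its 3 KI libraries, at 9.68, 11.1 and 14.1 CPM, were all above its WT libraries, at 6.09, 8.48 and 9.27, with a log2 fold change of 0.55 (SE 0.206, adjusted p = 0.421). The prefrontal cortex had an overlap, 10.2 to 13.4 CPM in WT and 12.4 to 15.6 in KI. *Irf2* differed by log2 fold changes of 0.20, 0.17 and 0.14 in the 3 regions, and the 95% intervals reached from -0.10 to 0.50, from -0.15 to 0.50 and from -0.18 to 0.46.

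*Irf8* (chr8:120736358-120756694, plus strand), a factor that microglia and other myeloid cells depend on, rose 2.40-fold in the cerebellum. Its WT libraries there held 1.67, 1.70 and 1.86 CPM and its KI libraries 3.59, 3.66, 3.81 and 5.69, from 23 to 26 and from 63 to 101 counts. The log2 fold change was 1.26 (SE 0.208, adjusted p = 0.00395), and the 4 KI libraries all lay well above the WT libraries. Levels were several times higher in the other regions, where the genotypes overlapped. The striatum held 9.73 to 13.4 CPM in WT and 12.4 to 15.8 in KI (log2 fold change 0.23, SE 0.192, adjusted p = 0.829), and the prefrontal cortex 6.45 to 9.72 and 8.23 to 8.85 (0.10, SE 0.196, adjusted p = 0.998).

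Microglia markers moved in the same direction in the cerebellum. Of 24 markers, a list that holds none of the 9 members, 16 were called higher in KI cerebellum and 0 lower, against the 0.517% of all genes. Their summed level was 255 to 264 CPM in WT and 411 to 540 in KI cerebellum. In the striatum 1 marker was called higher, with sums of 1211 to 1373 CPM in WT and 1292 to 1512 in KI, and in the prefrontal cortex 0 were called by edgeR or DESeq2 and 3 had an unadjusted p under 0.05. Set against this sum, *Irf8* stood at 6.45 to 7.04 CPM per 1000 CPM of microglia markers in WT cerebellum and at 7.85 to 10.5 in KI cerebellum, ranges that did not overlap. *Irf5* per 1000 CPM of markers overlapped in the cerebellum, at 5.51 to 8.23 and 3.99 to 6.95. By the same measure *Irf8* overlapped in the striatum, at 7.86 to 9.73 in WT and 8.22 to 12.3 in KI. It also overlapped in the prefrontal cortex, at 5.80 to 8.15 in WT and 6.50 to 8.57 in KI. The part of microglia in the level of *Irf8* was not tested.

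**Figure D4:**
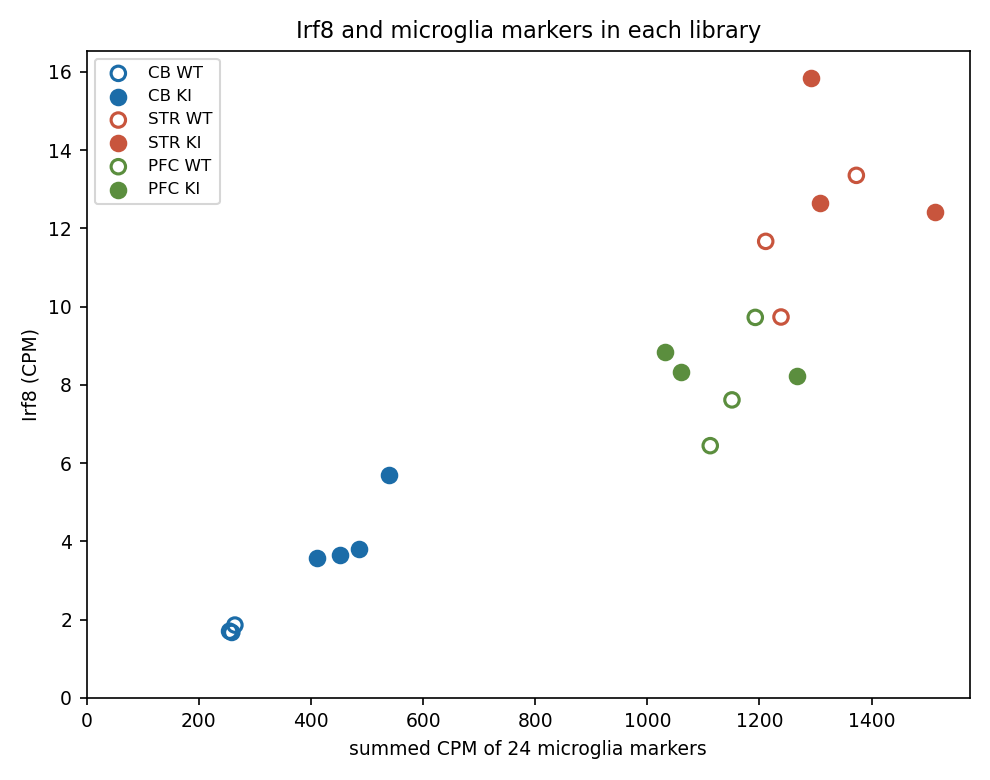
*Irf8* in CPM (vertical axis) against the summed CPM of 24 microglia markers (horizontal axis) in each of the 19 libraries, with open points for WT and filled points for KI. The cerebellum lies at the lower left, where its 4 KI libraries are above its 3 WT libraries on both axes, and the genotypes mix in the striatum and the prefrontal cortex.

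*Stat3* (chr11:100885098-100939540, minus strand), the effector of cytokines of the interleukin-6 family, was called in no region and overlapped between the genotypes in each. In the cerebellum it measured 62.5, 67.3 and 68.7 CPM in WT and 56.3, 67.2, 67.9 and 72.4 in KI, a log2 fold change of -0.00 with a 95% interval of -0.23 to 0.22. The striatum held 56.9 to 68.6 CPM in WT and 60.7 to 80.8 in KI (interval -0.08 to 0.41), and the prefrontal cortex 61.0 to 74.2 and 58.4 to 67.1 (interval -0.30 to 0.19). These intervals leave room for a change of at most 1.33-fold upward and 0.810-fold downward.

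The difference of the KI effect between regions was then tested for each member in the same fit. By edgeR, 0 of 9 members passed the adjusted test for cerebellum minus striatum, cerebellum minus prefrontal cortex or striatum minus prefrontal cortex, and 0.0119%, 0.0178% and 0% of all genes did. At an unadjusted p under 0.05 there were 3, 4 and 1 members, against 6.69%, 6.12% and 4.41% of all genes, and DESeq2 called 1, 1 and 0. The member that DESeq2 called was *Stat2*. These comparisons share groups with each other and with the comparisons within regions.

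*Stat2* had the smallest p for both differences that involve the cerebellum. Its KI effect was lower by 0.74 on the log2 scale in the cerebellum than in the striatum, with a difference of -0.74 (95% interval -1.01 to -0.46, unadjusted p = 3.53e-05, adjusted p = 0.119 by edgeR). Against the prefrontal cortex the difference was -0.64 (-0.92 to -0.36, adjusted p = 0.179). DESeq2 gave adjusted p of 0.00241 and 0.0113 for these differences, so the call rests on the choice of test, while the sign was the same under all 20 alternatives of each. *Irf8* had a larger KI effect in the cerebellum than in the striatum by 1.03 (0.43 to 1.62, adjusted p = 0.345) and than in the prefrontal cortex by 1.17 (0.57 to 1.77, adjusted p = 0.371).

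The effects on *Irf9* and *Irf7* were not shown to vary between regions. *Irf9* had an effect larger by 0.86 in the cerebellum than in the prefrontal cortex (0.35 to 1.37, adjusted p = 0.453), by 0.56 in the striatum than in the prefrontal cortex (0.03 to 1.09, adjusted p = 1.00), and by 0.30 in the cerebellum than in the striatum (-0.21 to 0.81, adjusted p = 0.902). For *Irf7* the same differences were 0.91 (-0.12 to 1.94), 0.85 (-0.20 to 1.89) and 0.06 (-0.96 to 1.08). These intervals are wide enough to hold a KI effect that is 1.94 log2 units larger in the cerebellum. For *Irf3* the effect was lower by 0.45 in the cerebellum than in the striatum, with a difference of -0.45 (-0.81 to -0.10, adjusted p = 0.591), and differed by -0.42 from the prefrontal cortex (-0.78 to -0.07, adjusted p = 0.701). For *Irf1*, *Irf2*, *Irf5* and *Stat3* all intervals held 0.

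**Figure D5:**
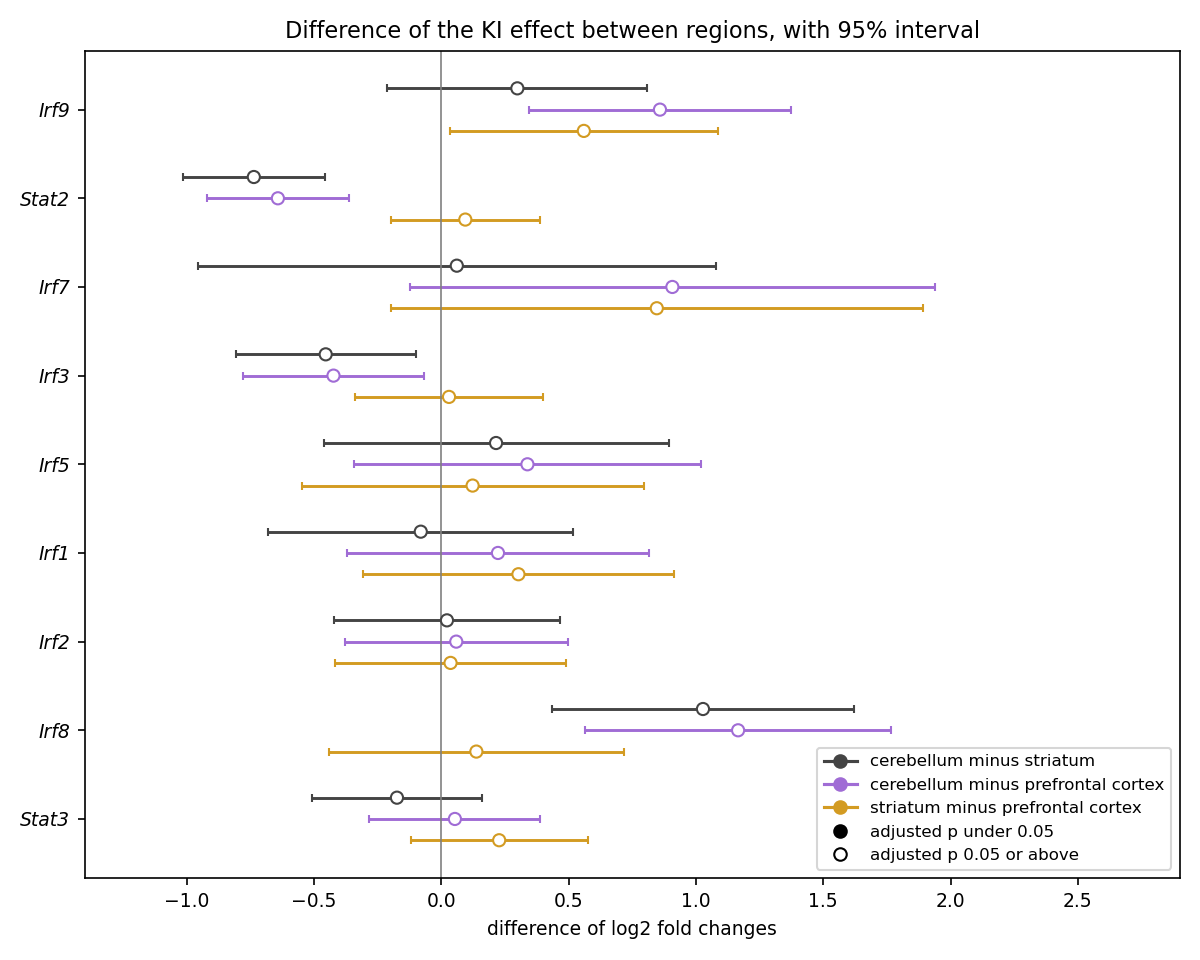
Difference between regions of the log2 fold change of KI over WT (horizontal axis) for each member, with 95% intervals from the edgeR fit; all points are open because none had an adjusted p under 0.05. The intervals of *Stat2* and *Irf8* that involve the cerebellum lie clear of 0 on opposite sides.

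The regions also differed in the levels that WT mice held. *Stat2* was the most cerebellar member, at 106 ± 7.85 CPM (SD, n = 3) in WT cerebellum, 26.7 ± 2.69 in WT striatum and 32.4 ± 1.26 in WT prefrontal cortex. It was 3.98-fold higher in the cerebellum than in the striatum (adjusted p = 4.96e-11) and 3.27-fold higher than in the prefrontal cortex (adjusted p = 3.33e-10). *Irf3* was 1.61-fold and 1.73-fold higher in the cerebellum, at 33.7 ± 2.19 CPM against 20.9 ± 3.50 and 19.4 ± 0.884. *Irf8* was lower by -2.73 and -2.18 log2 units in the cerebellum and *Irf5* by -1.77 and -1.73, and each of these differences was called by edgeR.

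Between WT cerebellum and WT striatum, 2 members were higher and 2 lower in the cerebellum, where 27.8% of all genes were higher and 28.7% lower. Between WT cerebellum and WT prefrontal cortex 2 were higher and 4 lower, with *Irf1* and *Irf2* among the lower, against 25.1% and 26.9% of all genes. Between WT striatum and WT prefrontal cortex *Irf8* was higher and *Irf2* and *Stat2* were lower in the striatum, against 14% and 16.4% of all genes. With so many genes called between regions, these counts of members do not set the members apart. Libraries of the striatum and the prefrontal cortex that carry the same number deviate together, and with that pairing as a block only *Irf2* remained called between these regions, while *Irf8* had an adjusted p of 0.0738 and *Stat2* of 0.115. Both calls were also lost without any 1 of several WT libraries, with adjusted p up to 0.164 for *Irf8* and 0.189 for *Stat2*. The call of *Irf2* between cerebellum and prefrontal cortex was lost without WT cerebellum 3 or WT prefrontal cortex 2 or 3 (adjusted p of 0.0773, 0.0821 and 0.0666). *Stat3*, *Irf7* and *Irf9* were not called between any WT regions, although without WT cerebellum 1 both were lower in the cerebellum than in the striatum (log2 differences of -1.02 and -0.60, adjusted p = 0.0464 and 0.0156) and the prefrontal cortex (-1.23 and -0.52, adjusted p = 0.0199 and 0.0340). Without WT striatum 3, *Irf9* was lower in the cerebellum than in the striatum (adjusted p = 0.0432) and *Irf1* lower in the striatum than in the prefrontal cortex (0.0464), and without WT striatum 2 *Irf1* was lower in the cerebellum than in the striatum (0.0418).

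Compared per kilobase of exon, *Stat2* was the most abundant of the 9 in WT cerebellum, at 17.9 ± 1.32 CPM per kilobase (SD, n = 3), followed by *Irf3* at 9.78 ± 0.635 and *Stat3* at 6.95 ± 0.343. It made up 43.4% of the summed level of the members there. In WT striatum the order was *Stat3* at 6.76 ± 0.678, *Irf3* at 6.06 ± 1.02 and *Stat2* at 4.50 ± 0.454, and in WT prefrontal cortex it was *Stat3* at 6.98 ± 0.719, *Irf3* at 5.65 ± 0.257 and *Stat2* at 5.47 ± 0.212. *Stat3* and *Irf3* in the striatum, and *Irf3* and *Stat2* in the prefrontal cortex, lay within the sum of their SDs. *Irf9* moved from rank 5 to 2 in the cerebellum, from 4 to 1 in the striatum and from 6 to 4 in the prefrontal cortex between WT and KI mice. *Irf7* moved from rank 7 to 5, from 9 to 2 and from 8 to 5. The exons annotated for *Irf7* join into 1 block of 3776 bases that spans the whole gene, and those of *Irf9* into 6 blocks of 5386 bases that cover most of it. The 7 blocks of *Irf3* hold 3442 bases, also most of its gene. Levels per kilobase of *Irf7*, *Irf9* and *Irf3* are therefore understated against members whose introns lie outside the exon blocks. Their order against each other, and that of *Irf3* against *Stat2* and *Stat3*, is uncertain.

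The genes around the members were read from lists chosen with earlier results of these data known, so their counts are descriptions beside the shares of all genes called that are given above. The ligands stood lowest. Of 20 genes for interferons, 19 had 0 counts in all 19 libraries, *Ifnb1* and *Ifng* included, which allows up to 3 counts or 0.172 to 0.282 CPM per library, and none of the 20 could be tested. Of 10 receptor and JAK kinase genes, 9 were tested and 0 were called in any region by edgeR, DESeq2 or limma, and 0 had an unadjusted p under 0.05. *Ifnar1*, a chain of the type I interferon receptor, measured 65.9 ± 1.06 CPM (SD, n = 3) in WT and 68.2 ± 5.87 (n = 4) in KI cerebellum, and the kinase gene *Tyk2* 25.9 ± 2.54 and 22.1 ± 2.86.

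Among 22 tested sensors and kinases upstream of IRF3, IRF5 and IRF7, edgeR called 3 higher in cerebellum, 3 in striatum and 0 in prefrontal cortex, and none lower. In the prefrontal cortex 5 had an unadjusted p under 0.05 and DESeq2 called 2. The cytosolic RNA sensor genes *Ddx58* and *Ifih1* rose in the cerebellum from 4.32 ± 0.749 to 12.2 ± 1.57 and from 3.49 ± 0.463 to 9.37 ± 1.60 CPM (adjusted p = 0.000644 and 0.00648), and in the striatum by log2 fold changes of 1.80 and 1.46 (adjusted p = 0.000388 and 0.0127). *Tlr7*, the endosomal sensor upstream of IRF5 and IRF7, rose in the cerebellum by 2.71 (SE 0.489, adjusted p = 0.00871), from 0.216 ± 0.0983 CPM to 1.43 ± 0.391. That WT mean lay within the 0.172 to 0.282 CPM that a count of 0 allows, so the size of this rise is uncertain. In the striatum *Tlr7* stood at 2.86 ± 0.988 and 2.78 ± 1.45. *Dhx58* rose in the striatum by 1.74 (adjusted p = 0.0317). The adaptor gene *Myd88* and the kinase genes *Tbk1* and *Ikbke* had adjusted p of 0.469 or more in each region, and *Tbk1* measured 80.3 ± 2.27 CPM in WT and 80.6 ± 5.99 in KI cerebellum.

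The targets of ISGF3 moved with *Irf9* and *Irf7*. Of 48 tested interferon-stimulated genes, the cerebellum had 36 called higher, the striatum 33 and the prefrontal cortex 8, and 0 were lower by edgeR. DESeq2 called 43, 42 and 18 of them, and 46, 42 and 40 had an unadjusted p under 0.05. Their median log2 fold change was 1.61, 1.63 and 1.06. *Oasl2* and *Usp18* were called in all 3 regions, *Usp18*, an inhibitor of the type I interferon receptor, with 3.67, 3.49 and 2.33. *Ifit1* rose by 3.17 in the cerebellum and 3.60 in the striatum and had 1.73 in the prefrontal cortex (adjusted p = 0.123), and *Isg15*, a ubiquitin-like modifier, by 2.07 and 2.89 with 1.80 in the prefrontal cortex (adjusted p = 0.223). Of 24 tested genes of the interferon gamma type that IRF1 activates, 7 were higher in cerebellum, 6 in striatum and 1, *Gbp3*, in prefrontal cortex, and 0 were lower. DESeq2 called 11, 10 and 1, and 16, 16 and 12 had an unadjusted p under 0.05. *Psmb9* and *Nlrc5*, which serve antigen presentation, were not called in any region, and *Gbp2* had adjusted p of 0.0563 in the cerebellum and 0.0628 in the striatum.

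On the side of STAT3, 11 cytokine and receptor genes and 24 target genes were tested, and edgeR called 0 of them in any region. At an unadjusted p under 0.05 there were 2, 1 and 2 of the upstream genes and 3, 2 and 0 of the targets in the 3 regions, DESeq2 called 1 target in the cerebellum, and limma on the deposited normalised table called 1 upstream gene there. The shared receptor chain gene *Il6st* measured 75.5 ± 1.78 CPM in WT and 87.0 ± 9.67 in KI cerebellum (adjusted p = 0.475), and *Lifr* was not called. *Gfap*, the filament gene of reactive astrocytes, stood at 246 ± 8.98 and 290 ± 51.9 CPM (adjusted p = 0.855). *Serpina3n* had a mean of 1.53 ± 0.947 CPM in WT and 26.6 ± 25.4 in KI cerebellum, a wide spread with an adjusted p of 0.0691. Of 18 inhibitors of JAK and STAT signalling, 1 was called in each region and was higher, *Usp18* in each case, while *Socs1*, *Socs3* and *Ptpn2* were not called in any.

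*Irf7* and *Irf9* had closely alike profiles over the libraries of both genotypes. After the mean of each region was subtracted from log2 CPM, their Pearson r was 0.984 over the 19 libraries. The genotype means were kept, so r holds the KI difference given above and does not show variation within a genotype. Genes of the IRF and STAT families that are not members were left out of the rankings that follow. The 5 genes most like *Irf7* were *Ifit1*, *Usp18*, *Oasl2*, *Irf9* and *Ifi27l2a* (r of 0.986 to 0.980). Those most like *Irf9* were *Ifi27l2a*, *Irf7*, *Usp18*, *Oasl2* and *Ifit1* (0.987 to 0.977). *Irf8* was most like *Laptm5*, *C1qc*, *C1qa*, *C1qb* and *Met* (0.891 to 0.852), the first 4 of them among the microglia markers. *Stat3* was most like *Hbp1*, *Dach2*, *Atp1b3*, *Zscan29* and *2700046A07Rik* (0.873 to 0.809). *Stat2* had an r of 0.378 with *Irf9* and 0.409 with *Irf7*, and *Irf3* of -0.01 and 0.01. The points share libraries and genotypes, so these values describe these libraries and carry no test.

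Markers of other cell types were read in the same libraries. Of the T, B and NK cell markers 3 of 18 had enough counts to test, and 0 of these, 0 of 10 monocyte, border macrophage and neutrophil markers, 0 of 10 astrocyte, 0 of 10 oligodendrocyte, 0 of 12 endothelial and pericyte, 0 of 10 choroid plexus, 0 of 8 granule cell, 0 of 8 medium spiny neuron and 0 of 8 cortical neuron markers were called in any region by edgeR. At most 3 markers of each of these lists had an unadjusted p under 0.05 in a region, and DESeq2 called 1 of them, a granule cell marker in the striatum. Of the 8 Purkinje cell markers 1 was called lower in KI cerebellum by edgeR and 2 by DESeq2, 5 had an unadjusted p under 0.05 and all 8 had a negative log2 fold change, and their summed level was 4157 to 5773 CPM there against 6465 to 6967 in WT. In the striatum the markers of medium spiny neurons summed to 5099 to 7389 CPM in KI and 9448 to 10832 in WT, although DESeq2 too called 0 of 8 and 1 had an unadjusted p under 0.05. Choroid plexus markers varied widely between libraries of the cerebellum, from 20.9 to 5130 CPM, and of the striatum, from 1597 to 9295. The part of these differences in the levels of the members was not tested.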

How the data were processed

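RNA from 19 mouse brain libraries was measured by sequencing (SMART-Seq v4 and Nextera XT kits). The authors deposited raw read counts per Ensembl gene, and a normalised signal, the same counts divided by 1 size factor per library. The submitters' processing notes name bcl2fastq 2.17.1.14, STAR 2.5.2b, HTSeq, DESeq2 1.10.1 and GRCm38.p3, and the paper's methods name Cufflinks instead. The annotation release and strand setting are not given in the sources used here. Gene positions and exon lengths were read from GENCODE M21, which held 40254 of 41128 identifiers.

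Counts were fitted in R 4.3.3 with edgeR 4.0.16 (quasi-likelihood test, TMM factors, filterByExpr, 1 coefficient for each of 6 groups, 13 residual degrees of freedom, common biological coefficient of variation 0.191), and Benjamini-Hochberg adjustment ran over 16841 genes. Log2 CPM used a prior count of 2, intervals are 95%, and a count of 0 allows up to 3 counts. Scripts were tested on simulated data. Alternatives were DESeq2 1.42.0, limma 3.58.1 on log2 of the deposited signal plus 1, DESeq2 size factors, other count filters (none, or at least 10 counts in every library), a sex covariate, fits of single regions, replicate blocks and leaving out each library.

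All 9 members were named in every comparison, with genes marked in each pathway list and the 5 genes most like *Irf7*, *Irf9*, *Irf8* and *Stat3*. The members and lists were chosen with earlier results of these data known. Per the methods of the study, RNA came from 3 to 4 mice of each genotype, which matches the number of libraries in each group, so libraries of a group were taken as separate mice. Whether the regions came from the same mice is not stated. Replicate numbers come from the labels. By counts of *Xist* and of Y-linked genes, KI 1, KI 2 and WT 1 were male in both striatum and prefrontal cortex. KI 3, WT 2 and WT 3 were female there. In the cerebellum KI 1, KI 3, WT 1 and WT 2 were female, and KI 2, KI 4 and WT 3 male. Cerebellum KI 1, WT 1 and WT 3 were thus not from the same-numbered mice of the other regions. The main fit held no term for sex. Same-numbered libraries of striatum and prefrontal cortex deviated together within a genotype (6 pairs, r between 0.233 and 0.368, and between -0.253 and -0.0758 for 12 other pairs). The main fit held no term for these pairs and took all libraries as independent. The pairs entered only as a replicate block among the alternatives. Cerebellum numbers did not pair with either region (r between -0.104 and 0.163), nor did genotypes within a region (r between -0.245 and 0.172).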

Additional observations from a re-analysis of the deposited data

Results flagged for a closer look

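*Irf8* in KI cerebellum had 1 library apart from the others, at 5.69 CPM where the other 3 held 3.59 to 3.81. Its gap passed Dixon's 95% critical value for 4 samples. This was 1 of 9 such groups tested, and chance flags about 1 in 20. *Irf3* lay in opposite directions in different regions, with log2 values of -0.27 (KI over WT) in cerebellum, where all KI libraries were lower, and 0.15 in prefrontal cortex, where all were higher. The test of that difference gave -0.42 with an unadjusted p of 0.0221 and an adjusted p of 0.701 by edgeR, so it did not pass.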

How the results depend on the processing

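Of 414 recomputed log2 fold changes of KI over WT, 392 kept their direction and their side of the threshold, 14 lost a call and 8 changed sign. Counts of members called stayed within 1.5 times in 131 of 144 cases. DESeq2 called 1 member for each of the differences cerebellum minus striatum and cerebellum minus prefrontal cortex, where edgeR called 0. With a region fitted alone, 0 members were called in the prefrontal cortex. With the region alone and the replicate number as a replicate block, 1 was called there in place of 2, and 1 in the striatum in place of 3. Between WT striatum and WT prefrontal cortex the count fell from 3 to 1 with no filter on low counts and to 1 with the replicate block over these regions alone, a fit chosen after seeing the data. Leaving out 1 library gave 1 to 2 members in the prefrontal cortex and 1 to 3 between those WT regions. The calls lost were *Irf8* in the cerebellum (adjusted p = 0.0839) and *Irf7* in the striatum (0.0858) with the region alone and its block, *Stat2* in the striatum with the region alone (0.131) and with its block (0.265), and in the prefrontal cortex *Irf9* (0.201 and 0.0858) and *Irf7* alone (0.201). The pairing of striatum and prefrontal cortex changed no other call. The cause was not tested.

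Signs turned for values near 0. *Stat3* in the cerebellum went to 0.0044 with the sex covariate and 0.00047 with the region alone, *Stat3* between WT cerebellum and WT prefrontal cortex to 0.0072 with no filter, and the *Irf2* difference cerebellum minus striatum to -0.022 with the sex covariate. Leaving out 1 library gave KI effects of -0.053 to 0.064 for *Stat3* in the cerebellum and, in the prefrontal cortex, -0.035 to 0.28 for *Irf2*, -0.033 to 0.27 for *Irf8* and -0.12 to 0.028 for *Stat3*. Cerebellum minus striatum ranged from -0.39 to 0.61 for *Irf7*, -0.047 to 0.079 for *Irf2* and -0.21 to 0.099 for *Irf1*. Cerebellum minus prefrontal cortex ranged from -0.079 to 0.23 for *Irf2* and -0.031 to 0.12 for *Stat3*. Striatum minus prefrontal cortex ranged from -0.038 to 0.26 for *Irf5*, -0.093 to 0.12 for *Irf3*, -0.10 to 0.21 for *Irf2* and -0.037 to 0.27 for *Irf8*. Between WT regions *Stat3* ranged from -0.058 to 0.079 (cerebellum against striatum), -0.068 to 0.077 (cerebellum against prefrontal cortex) and -0.11 to 0.047 (striatum against prefrontal cortex), where *Irf5* ranged from -0.097 to 0.14, *Irf7* from -0.65 to 0.083 and *Irf9* from -0.046 to 0.19.

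Over all genes, with regions fitted alone 46 were called for striatum and 0 for prefrontal cortex, and 10 and 5 with the replicate block. DESeq2 called 336, 214 and 52 for KI against WT in the cerebellum, striatum and prefrontal cortex where edgeR called 140, 98 and 18, and 40, 33 and 11 for the differences between regions where edgeR called 2, 3 and 0. All 54 group levels per kilobase stayed within 1 SD under DESeq2 size factors. In WT cerebellum *Irf5*, *Irf7* and *Irf8* had as few as 18, 20 and 23 counts in a library, which limits their precision there.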
